A study of Mus musculus with 12 samples.

Results

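The BBSome is a protein complex of 8 subunits, encoded by Bbs1, Bbs2, Bbs4, Bbs5, Bbs7, Bbs9, Ttc8 and Bbip1. These 8 genes were examined together with Arl6, the small GTPase that brings the complex to membranes, and Lztfl1, which regulates its entry into cilia. All 10 were found by gene symbol among the 53707 genes of the count table, and all 10 passed the filter on low counts. Total RNA was sequenced from retinas of wild-type C57BL/6J mice at P28, freed of the pigment epithelium and sclera and kept for 48 h as explants in Neurobasal-A medium with B27 and N2 supplements. The medium held 5 mM glucose in one group and 25 mM in the other, and nothing else differed in the stated treatment. Each group had 3 biological replicates, and each replicate had 2 technical libraries, 1 in each of 2 batches. The sources do not say whether a replicate was 1 retina or several, nor what separates the batches.

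A photoreceptor's outer segment is a modified primary cilium, and every protein in it passes through the narrow connecting cilium. GTP-bound Arl6 recruits the BBSome to the ciliary membrane, where the complex acts as a coat-like adaptor that travels with intraflagellar transport trains and carries membrane proteins out of the cilium. Loss of BBSome function causes Bardet-Biedl syndrome, in which photoreceptors degenerate, and in mice lacking subunits non-resident membrane proteins accumulate in the outer segment.

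The sequences below show a place where the transcripts of Arl6 and Ttc8 differ, because both genes have a short coding exon that is used in photoreceptors. The transcripts also differ elsewhere. Ttc8-201 has 2270 bases in all and Ttc8-202 has 2272, and Arl6-201 has 1696 and Arl6-203 has 875. In Ttc8, exon 2 of the 15 exons of transcript Ttc8-201 (chr12:98937120-98937149, plus strand, GRCm38) is 30 bases long and lies inside the coding sequence. It adds 10 codons without shifting the frame, so that Ttc8-201 encodes 515 amino acids and Ttc8-202, which lacks it, 505. In Arl6, exon 7 of the 8 exons of Arl6-203 (chr16:59618666-59618678, minus strand) is 13 bases long. It shifts the frame and changes the end of the protein, which has 193 amino acids with the exon (Arl6-202 and Arl6-203) and 186 without it (Arl6-201). The annotation of Arl6-204, another coding transcript, ends before this exon. Capitals mark the exon, with 24 coding bases before it in each line. The Ttc8 lines go on for 24 bases after it and the Arl6 lines end with the stop codon, all read 5′ to 3′ from the GENCODE transcripts.
Ttc8-201: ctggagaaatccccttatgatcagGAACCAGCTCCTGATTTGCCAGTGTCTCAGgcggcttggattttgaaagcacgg
Ttc8-202: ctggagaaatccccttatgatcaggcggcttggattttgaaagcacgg
Arl6-203: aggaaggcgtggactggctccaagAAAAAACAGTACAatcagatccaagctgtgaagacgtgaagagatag
Arl6-201: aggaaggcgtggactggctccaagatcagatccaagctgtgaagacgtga

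The libraries held between 14815285 and 36692484 estimated counts. The technical libraries did not pair as labelled. None of the 12 correlated best with its own technical partner, and both libraries of 5 mM replicate 1 correlated best with a library of the other group, the batch 2 library of 25 mM replicate 2 (Pearson's r of log2 CPM across genes = 0.974 and 0.978). The 2 libraries of 25 mM replicate 2 correlated at 0.931, whereas its batch 1 library reached 0.981 with the batch 2 library of 25 mM replicate 1. Whether the replicate labels are right cannot be told from these files, and every replicate sum, SD and n here takes them as given. These 2 libraries also held the 2 highest values of every one of the 10 genes but Bbip1. Results are therefore given with the technical libraries summed, which is the main analysis, and without the libraries that stand apart. Values are CPM (counts scaled to a common library size) with TMM factors, unless another unit is named.

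All 10 genes had higher fitted levels at 25 mM than at 5 mM, as had 49.3% of all genes tested, and 3 of the 10, Arl6, Bbs7 and Ttc8, passed an adjusted p of 0.05 in edgeR's quasi-likelihood test. Of all 21061 genes tested, 1.98% passed it in either direction and 1.47% as higher at 25 mM. An unadjusted p below 0.05 in the higher direction was found for 8 of the 10 and for 13.2% of all genes, and DESeq2 called 8 of the 10 and 16.6% of all genes at an adjusted p of 0.05. The median log2 fold change of the 10 genes was 1.01, beside -0.01 for all genes tested. None of the 10, and 0% of all genes, passed the study's stricter threshold of an adjusted p below 0.01 with a change over 2-fold, although 6052 genes had an unadjusted p below 0.05 and DESeq2 placed 1387 genes and 5 of the 10 past the stricter threshold. The study's own processing did give genes past that threshold. It reported a majority of them as higher at 25 mM and named Arl6 among these. In 8 of the 10 genes, all but Bbip1 and Lztfl1, the lowest replicate at 25 mM exceeded the highest at 5 mM, which held for 16.0% of all genes. When the 12 libraries were kept apart, Arl6, Bbs5 and Bbs1 alone still had no overlap between the groups, which held for 3.12% of all genes.

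**Figure D1:**
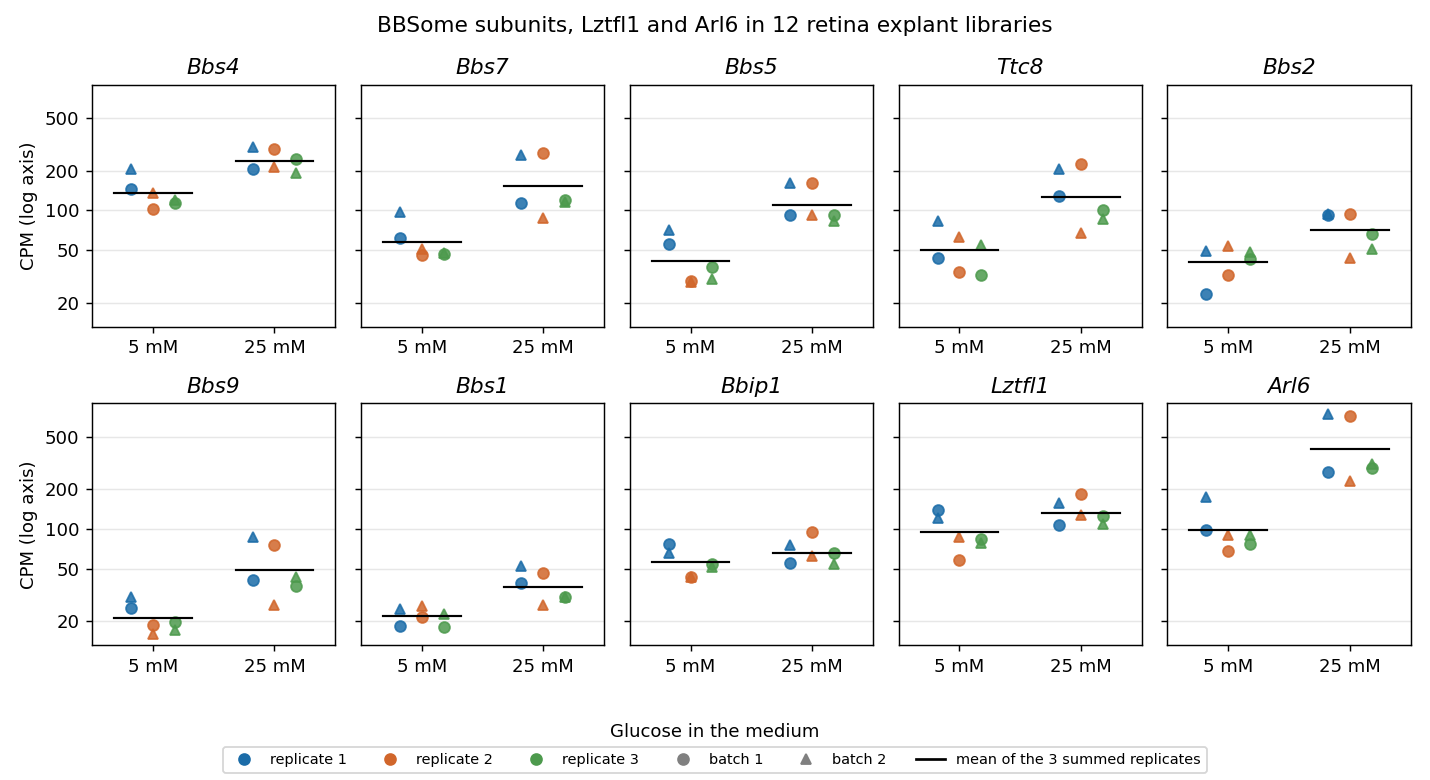
Level of each gene in CPM (log axis) in the 6 libraries at 5 mM and the 6 at 25 mM glucose. Colours mark the biological replicate, symbols the batch, and black lines the mean of the 3 replicates after their libraries were summed. The batch 2 library of 25 mM replicate 1 and the batch 1 library of 25 mM replicate 2 are the 2 highest points for Arl6, at 739 and 724 CPM.

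Arl6 had the largest change of the 10. Its level at 5 mM was 131, 77.5 and 84.0 CPM in replicates 1 to 3, and at 25 mM it was 491, 410.2 and 303 CPM. The lowest replicate at 25 mM was thus above the highest at 5 mM, and replicate 1 was the highest in both groups. The fitted log2 fold change was 2.04 ± 0.27 (SE, n = 3 per group), a 4.11-fold difference with an adjusted p of 0.0261 in edgeR's test, and 99.2% of all genes tested had a lower fold change. Library by library, Arl6 ranged from 68.0 to 174.8 CPM at 5 mM, with a median of 89.7, and from 231.8 to 739 CPM at 25 mM, with a median of 299.2.

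Among the subunits, Bbs7 and Ttc8 passed the test. Bbs7 encodes one of the beta-propeller subunits of the core that Bbs2, Bbs7 and Bbs9 form first during assembly. It was at 77.5, 48.1 and 47.5 CPM at 5 mM and at 184.8, 155.1 and 119.9 CPM at 25 mM, a log2 fold change of 1.41 ± 0.25 (edgeR adjusted p = 0.0423). Ttc8, a subunit built of tetratricopeptide repeats, was at 60.3, 46.8 and 44.2 CPM at 5 mM and at 162.9, 124.5 and 93.3 CPM at 25 mM, a log2 fold change of 1.33 ± 0.24 (edgeR adjusted p = 0.0410). Neither gene's replicates overlapped between the groups, and replicate 1 was again the highest in each.

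The other core subunits gave smaller or less certain differences. Bbs9, the third member of the core, was at 27.7, 17.5 and 18.5 CPM at 5 mM and at 62.5, 44.4 and 40.7 CPM at 25 mM. Its log2 fold change was 1.21 ± 0.25, with an adjusted p of 0.0529 in edgeR's test. Bbs2 was at 34.4, 42.0 and 45.9 CPM and at 91.5, 61.4 and 58.9 CPM, a log2 fold change of 0.79 ± 0.22 (edgeR adjusted p = 0.0776). The replicates of both genes were separated by glucose, and the highest of the 3 at 25 mM was replicate 1 in each case.

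Bbs1 encodes the subunit that binds Arl6, Bbs5 a subunit with lipid-binding domains, and Bbs4 a second subunit of tetratricopeptide repeats. Bbs5 was at 62.5, 28.7 and 33.7 CPM at 5 mM and at 123.6, 115.9 and 88.1 CPM at 25 mM, with a log2 fold change of 1.39 ± 0.30 that is close in size to that of Bbs7 but has a wider error (edgeR adjusted p = 0.0569). Bbs4 was at 171.8, 116.6 and 118 CPM and at 249.1, 239.8 and 218.6 CPM, a log2 fold change of 0.80 ± 0.20 (edgeR adjusted p = 0.0671). Bbs1 was at 21.1, 23.6 and 20.6 CPM and at 44.7, 33.5 and 30.5 CPM, a log2 fold change of 0.73 ± 0.20 (edgeR adjusted p = 0.0768). None of these 3 genes had overlapping replicates, and none passed the test.

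Bbip1 and Lztfl1 had the smallest differences. Bbip1, the smallest subunit, was at 72.4, 43.5 and 53.2 CPM at 5 mM and at 64.4, 73.4 and 60.1 CPM at 25 mM. Its groups overlapped, and its log2 fold change of 0.23 ± 0.21 (edgeR adjusted p = 0.498) turned to -0.03 when the counts were corrected for GC content and length. Lztfl1 was at 132.6, 70.7 and 81.6 CPM at 5 mM and at 129.7, 146.9 and 117.8 CPM at 25 mM, a log2 fold change of 0.47 ± 0.25 (edgeR adjusted p = 0.243). This became 0.07 (edgeR adjusted p = 0.719) with the same correction and 0.79 (edgeR adjusted p = 0.0169) without 5 mM replicate 1. In both genes the overlap came from 5 mM replicate 1, whose value exceeded at least 1 replicate at 25 mM. A few exon bases of 4 of the genes are shared with a gene on the opposite strand, 3.21% of those of Bbs4 with Adpgk, 2.2% of Bbip1 with Shoc2, 4.39% of Lztfl1 with Gm17200 and 2.62% of Arl6 with 4930547E14Rik. Whether the counting used strand is not given in the sources used here.

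**Figure D2:**
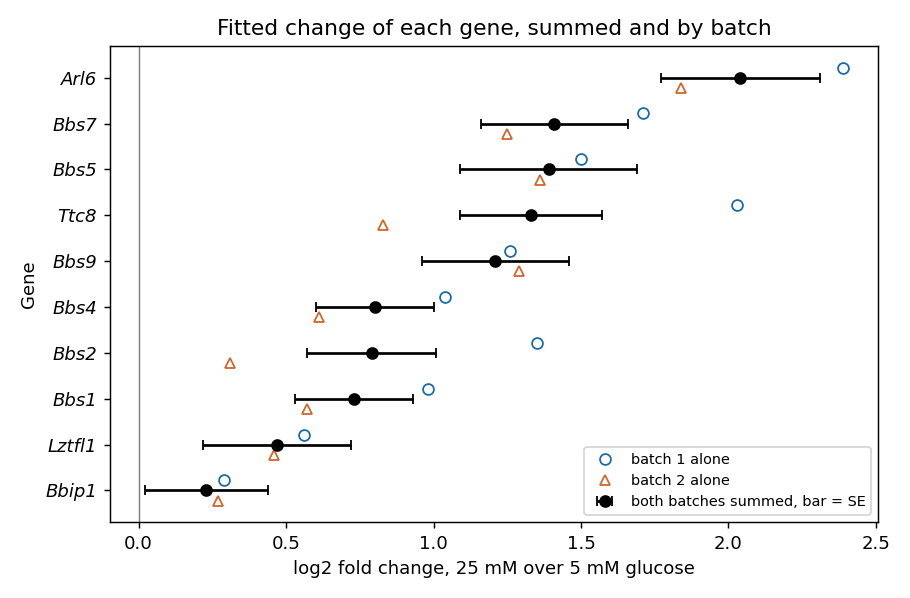
Fitted log2 fold change of each gene, 25 mM over 5 mM glucose, with the libraries of both batches summed (black points, bars are the SE of the fit, n = 3 per group) and for batch 1 or batch 2 libraries alone (open symbols). All points lie above 0, Arl6 is the highest in each analysis, and Ttc8 and Bbs2 show the widest gap between the batches.

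The calls depended on which libraries were included, while all 10 log2 fold changes stayed above 0 in each of the analyses of this paragraph. In batch 1 alone 8 of the 10 genes passed an adjusted p of 0.05 (17.3% of all genes did) with a median log2 fold change of 1.31, and in batch 2 alone none did (0% of all genes, although 2203 had an unadjusted p below 0.05) with a median of 0.72. Ttc8 had a log2 fold change of 2.03 in batch 1 and 0.83 in batch 2, and Bbs2 1.35 and 0.31. In the test of the glucose by batch term in edgeR, Bbs2 had an unadjusted p of 0.0136 (adjusted p = 0.224) and Ttc8 0.0499 (adjusted p = 0.306), no other of the 10 genes had an unadjusted p below 0.05, and 0 of 18725 genes passed after adjustment (3056 had an unadjusted p below 0.05). Without the 2 libraries at 25 mM that resembled each other, none of the 10 and 0 of all 20937 genes tested passed in edgeR (3995 had an unadjusted p below 0.05), the median was 0.74, and Arl6 had a log2 fold change of 1.48 (edgeR adjusted p = 0.127). Without 5 mM replicate 1, 8 passed, as did 26.6% of all 21945 genes tested, and the median was 1.23. No gene of the 10 passed in edgeR without replicate 2 or 3 of the 5 mM group, or without replicate 1 or 2 of the 25 mM group, and the log2 fold change of Arl6 was then between 1.88 and 2.04. In these 4 analyses 0 of the 21704 to 21820 genes tested passed, and 3813 to 4071 had an unadjusted p below 0.05.

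Levels were compared between genes per transcript length, as TPM (transcript counts divided by transcript length and scaled to a common total). All annotated forms of a gene were added, with or without a coding sequence, and a short form weighs more per count. At 25 mM Bbs5-206, a form of 508 bases without a coding sequence, had 9.2 CPM. The coding Bbs5-201, of 1468 bases, had 43.9 CPM. In Bbs4 the coding Bbs4-201 held 97.0% of the counts at 25 mM. Ranges and orders of coding forms alone were not examined. Arl6 had the highest level in both media, at 172.5 ± 45.1 TPM (SD, n = 3) at 5 mM and 777 ± 217 TPM at 25 mM, and its replicates did not overlap those of the next gene in either medium. Bbs1 had the lowest, at 9.67 ± 1.02 and 17.5 ± 4.72 TPM. The 8 subunits share 1 complex, and their levels over all forms covered a 10.7-fold range at 5 mM, from Bbs1 to Bbip1. At 25 mM the range over all forms was 11.6-fold, from Bbs1 to Bbs5.

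At 5 mM the order below Arl6 was Bbip1, Bbs4, Bbs5, Ttc8, Lztfl1, Bbs7 and Bbs2, in which every gene overlapped its neighbour in the range of its replicates. Bbs9 and Bbs1 followed, each apart from the gene above it. At 25 mM Bbs5 (202.9 ± 35.0 TPM), Bbs4 (191.2 ± 22.8 TPM) and Ttc8 (186.6 ± 59.6 TPM) came next after Arl6 with overlapping ranges. Bbip1 came directly after Arl6 at 5 mM, with 103.3 ± 22.6 TPM, and only after Ttc8 at 25 mM, with 132.5 ± 8.63 TPM, where its replicates lay below all those of Ttc8. Part of the Ttc8 level came from short forms without a coding sequence. Ttc8-203, Ttc8-205 and Ttc8-208, of 781, 653 and 942 bases, had 16.9, 10.0 and 13.2 CPM at 25 mM. The coding Ttc8-201, of 2270 bases, had 63.0 CPM. Whether the order of Bbip1 and Ttc8 holds for coding forms alone was not tested.

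**Figure D3:**
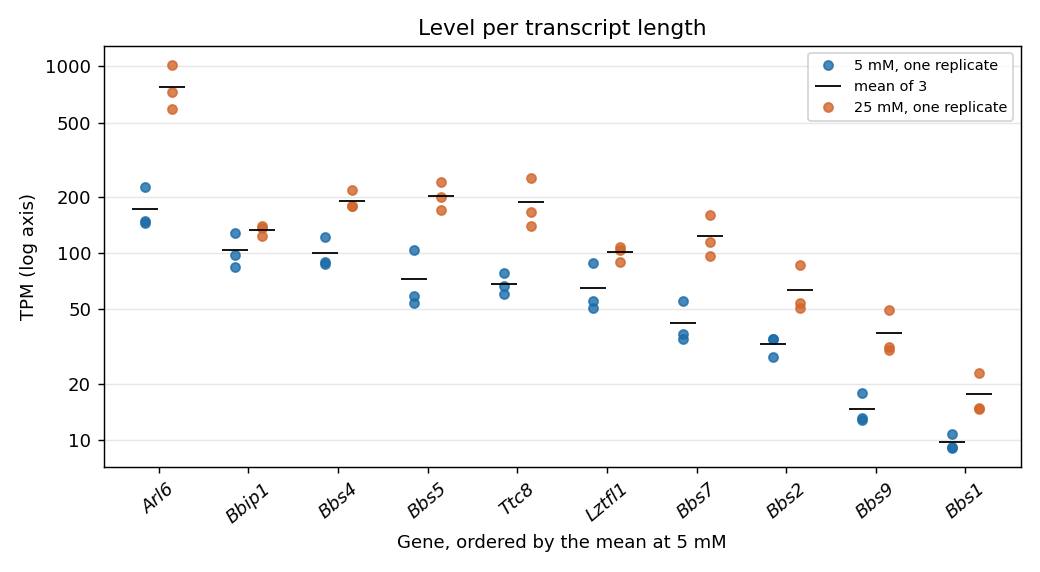
Level per transcript length in TPM (log axis), added over all annotated forms, in each of the 3 replicates at 5 mM and at 25 mM glucose, with the mean as a black line. Genes are ordered by their mean at 5 mM, from Arl6 (172.5 TPM) to Bbs1 (9.67 TPM).

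The transcript table holds estimated counts for each annotated form of the genes, so that values of forms that share exons depend on each other. None of the 59 transcripts of the 10 genes that could be tested passed an adjusted p of 0.05 in edgeR's test, nor did any of the 64990 transcripts tested (0%). Unadjusted p values below 0.05 were found for 32 of the 59 and for 10668 of all (16.4%). The share of a transcript in its gene was tested for the 22 transcripts with a mean share of at least 10%. The shares of 12 of the 22 did not overlap between the groups, which held for 17.2% of the 30792 such transcripts of all genes, but 3 replicates against 3 cannot give a two-sided exact permutation p below 0.1, and after adjustment over the 22 the smallest was 0.183.

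In Ttc8 the form with the 30-base exon had a larger share of the counts at 25 mM, and the form without it a smaller one. Ttc8-201, which holds the exon, took 32.6% ± 11.7 (SD, n = 3) of the gene's counts at 5 mM and 54.8% ± 8.6 at 25 mM, and Ttc8-202 took 37.6% ± 12.9 and 8.7% ± 1.6 (exact permutation p = 0.1 for each). In CPM, Ttc8-201 had a mean of 17.5 at 5 mM and 63.0 at 25 mM, with a log2 fold change of 1.85 ± 0.38 (edgeR adjusted p = 0.202), and Ttc8-202 had 19.2 and 10.4, with -0.89 ± 0.34 (edgeR adjusted p = 0.281). Of the counts of these 2 transcripts alone, Ttc8-201 held 61.5%, 27.4% and 51.1% in replicates 1 to 3 at 5 mM and 84.0%, 83.5% and 90.4% at 25 mM. The 6 libraries at 5 mM spanned 15.6% to 70.8%, and the 6 at 25 mM spanned 75.7% to 98.9%, so that no library overlapped. How often single libraries separate in such shares over all genes was not examined. Technical libraries of a replicate are not independent, and those of 5 mM replicate 2 were at 15.6% and 40.1%. Batch 1 alone and batch 2 alone gave the same direction for both transcripts. The difference in the share of Ttc8-202 was -37.2 and -19.7 percentage points. These counts are estimated for whole transcripts, which also differ outside the exon, and reads over the exon alone were not examined.

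All 4 coding transcripts of Arl6 had higher mean levels at 25 mM, and none passed the test. The forms with the 13-base exon, Arl6-202 and Arl6-203, were set against all counts of Arl6-201, Arl6-202 and Arl6-203. Together they held 81.8%, 77.8% and 82.0% of these at 5 mM and 82.5%, 80.6% and 85.7% at 25 mM. The difference was within the spread of the replicates (exact permutation p = 0.4, two-sided). Here too the transcripts differ outside the exon, and reads over it alone were not examined. Arl6-203 was the most abundant form in both media, with 55.1% ± 1.7 and 59.4% ± 2.8 of the gene's counts. Its share did not overlap between the groups (exact permutation p = 0.1). The form without the exon, Arl6-201, averaged 18.6 CPM in low and 65.3 CPM in high glucose. Its log2 fold change was 1.81 ± 0.35 (edgeR adjusted p = 0.198). Arl6-203 averaged 56.2 and 231 CPM, with a log2 fold change of 2.04 ± 0.30 (edgeR adjusted p = 0.192). Arl6-204 averaged 4.89 and 15.4 CPM, with a log2 fold change of 1.65 ± 0.23 (edgeR adjusted p = 0.192), and held 5.1% ± 1.5 and 4.0% ± 0.4 of the gene's counts.

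**Figure D4:**
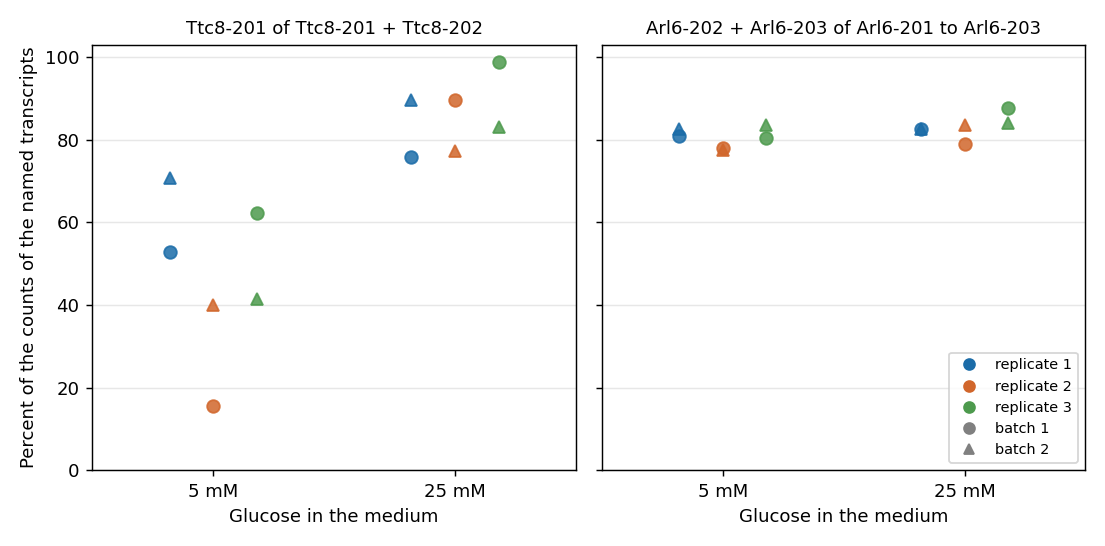
Percent of the counts of the named transcripts held by the forms with the short exon, in the 6 libraries of each glucose group (colours mark replicates, symbols batches). The left panel shows Ttc8-201, at 15.6% to 70.8% at 5 mM and 75.7% to 98.9% at 25 mM, and the right panel Arl6-202 and Arl6-203 of the counts of Arl6-201, Arl6-202 and Arl6-203, at 77.5% to 83.5% and 79.0% to 87.6%.

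Bbs5 and Bbs9 also had shares without overlap between the groups. In Bbs5, the transcript with the full coding sequence of 341 codons, Bbs5-201, held 59.1% ± 3.3 of the counts at 5 mM and 43.7% ± 3.4 at 25 mM. Bbs5-205, annotated as a target of nonsense-mediated decay, held 17.2% ± 1.9 and 23.4% ± 2.1. Bbs9-209, which encodes 885 amino acids, held 37.4% ± 9.3 and 54.3% ± 2.2 of the Bbs9 counts, while Bbs9-201, which encodes 880, held 25.9% ± 7.2 and 15.3% ± 1.8. Each of these 4 had no overlap and an exact permutation p of 0.1. The same held for Bbs9-210, Bbip1-206 and Lztfl1-201, with smaller shares at 25 mM, and for Bbip1-209 and Lztfl1-204, with larger ones. Bbs1, Bbs2 and Bbs4 each had 1 dominant transcript, with 85.7% to 97.7% of the gene's counts in either medium.

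Transcripts annotated as retained introns held 5.9% ± 0.1 of all transcript counts at 5 mM and 7.3% ± 0.4 at 25 mM, without overlap between the replicates. The same measure was 9.6% ± 2.5 and 16.1% ± 3.8 in Bbs5, 17.9% ± 0.5 and 22.9% ± 0.5 in Bbip1, and 3.7% ± 0.2 and 5.1% ± 0.2 in Lztfl1, again without overlap, which held in this direction for 30.0% of the 8598 genes tested that had such counts. With overlap, the means at 5 and 25 mM were 10.9% ± 1.9 and 13.8% ± 2.1 in Bbs1, 10.0% ± 3.6 and 13.3% ± 3.5 in Ttc8, 2.1% ± 0.3 and 2.9% ± 0.7 in Bbs4, 1.5% ± 0.6 and 3.0% ± 1.1 in Bbs7, and 0.9% ± 0.3 and 2.0% ± 0.9 in Bbs9. In Bbs2 it was 8.1% ± 4.2 and 5.5% ± 1.0 with overlap, and in Arl6 it was 0.0% in both media. Over the whole library the retained intron share of batch 1 libraries was 5.14% to 5.61% at 5 mM and 7.54% to 8.29% at 25 mM. In batch 2 libraries it was 5.87% to 6.51% and 6.19% to 7.34%, with overlap. The share was thus separated by glucose in the summed replicates and in batch 1, but not in batch 2. Its part in the differences of the 10 genes was not tested.

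Rod markers were also higher at 25 mM. All 15 rod marker genes had a positive log2 fold change, with a median of 1.06, and 8 passed the edgeR test, among them the rhodopsin kinase Grk1 at 2.16 ± 0.23 (adjusted p = 0.0217) and the phosphodiesterase subunit Pde6b at 1.65 ± 0.18 (adjusted p = 0.0217). Their summed level was 3300 to 6072 CPM at 5 mM and 7341 to 10150 CPM at 25 mM, and none was absent. In whole retina, fewer rods and less rod RNA per cell cannot be told apart. Relative to the mean log2 CPM of the 15 rod genes in the same replicate, the difference between 25 mM and 5 mM was 0.92 for Arl6, between 0.08 and 0.32 for Bbs5, Bbs7, Ttc8 and Bbs9, and between -0.31 and -0.88 for Bbs4, Bbs2, Bbs1, Lztfl1 and Bbip1. The groups overlapped in Arl6, because 5 mM replicate 1 had a value of 0.05 and 25 mM replicate 3 of -0.13. They did not overlap in Bbs1 and Bbs2, where all 3 replicates at 25 mM were below all 3 at 5 mM on this scale. The same held for 69.9% of all genes.

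Markers of vessels and microglia had lower fitted levels at 25 mM. All 9 vascular markers had a negative log2 fold change, with a median of -1.92. Their summed level was 924.3 to 1760 CPM at 5 mM and 405.3 to 776.9 CPM at 25 mM. All 8 microglia markers were also negative, with a median of -1.03 and sums of 283.7 to 382 and 117.8 to 228.9 CPM. None of these 17 passed the edgeR test. At an unadjusted p below 0.05 in that test, 8 of the 9 vascular and 5 of the 8 microglia markers were lower and 0 were higher. Of all 21061 genes tested, 6052 were below it in either direction. Medians were 0.49 for 9 cone markers, of which 1 (Opn1mw, 1.75 ± 0.31, adjusted p = 0.0420) passed, 0.40 for 8 bipolar, -0.15 for 6 amacrine, -0.02 for 6 ganglion, 0.07 for 4 horizontal and -0.19 for 8 Mueller glia markers, none of which passed. Of the pigment epithelium markers, Rpe65 had fewer than 1 count per library on average, 6 of 8 could be tested, none passed, and their summed level was 10.2 to 17.6 CPM over both groups. The mitochondrial share of counts was 5.91% to 11.76% at 5 mM and 7.94% to 15.4% at 25 mM. The part of these values in the differences of the 10 genes was not tested.

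The BBSome is assembled with the help of chaperonin-like proteins and the CCT ring, and these groups differed in direction. All 3 chaperonin-like genes (Mkks, Bbs10 and Bbs12) had positive log2 fold changes with a median of 0.82, and Bbs12 passed the edgeR test at 1.36 ± 0.24 (adjusted p = 0.0400), with 21.2 ± 5.22 CPM (SD, n = 3) at 5 mM and 54.4 ± 10.4 CPM at 25 mM. All 8 CCT ring subunits had negative log2 fold changes with a median of -0.29, and none passed. Cct7 was the farthest from 0, at -0.50 ± 0.19 (adjusted p = 0.137).

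Of 12 other Bardet-Biedl genes, 9 had a positive log2 fold change, the median was 0.29 and none passed the edgeR test. Cep290, a protein of the connecting cilium, had the largest value at 1.36 ± 0.38 (adjusted p = 0.0767). Of 10 genes whose products work with the BBSome or at the ciliary membrane, 5 were positive, the median was -0.05 and none passed, with Arl13b, another ciliary GTPase, at 0.95 ± 0.19 (adjusted p = 0.0502). Intraflagellar transport genes, which move the BBSome along the axoneme, had a median of 0.35, with 24 of 29 positive and none past the test. The largest was Ttc26 at 0.99 ± 0.27 (adjusted p = 0.0750).

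Genes of proteins that the BBSome carries had no common direction. Of 6 such genes 2 were positive, the median was -0.30 and none passed. In edgeR's test 1 of the 6 was higher and 3 were lower at an unadjusted p below 0.05. The 1 higher gene is not among the 3 with the largest changes, which are named next. The summed level of the 6 was 534.5 to 580.4 CPM at 5 mM and 684.5 to 881.6 CPM at 25 mM. The ciliary receptors Gpr161 and Sstr3 had log2 fold changes of -0.86 ± 0.26 (edgeR adjusted p = 0.0871) and -0.99 ± 0.40 (adjusted p = 0.152), and Mchr1 had 1.18 ± 0.54 (adjusted p = 0.188), Sstr3 and Mchr1 at levels near 1 CPM or below. Among 16 tested ARF-like GTPases, the family of Arl6, 7 were positive with a median of -0.03, and Arl6 was the single gene that passed. Arl14, the 17th, was not tested and had fewer than 1 count per library on average.

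**Figure D5:**
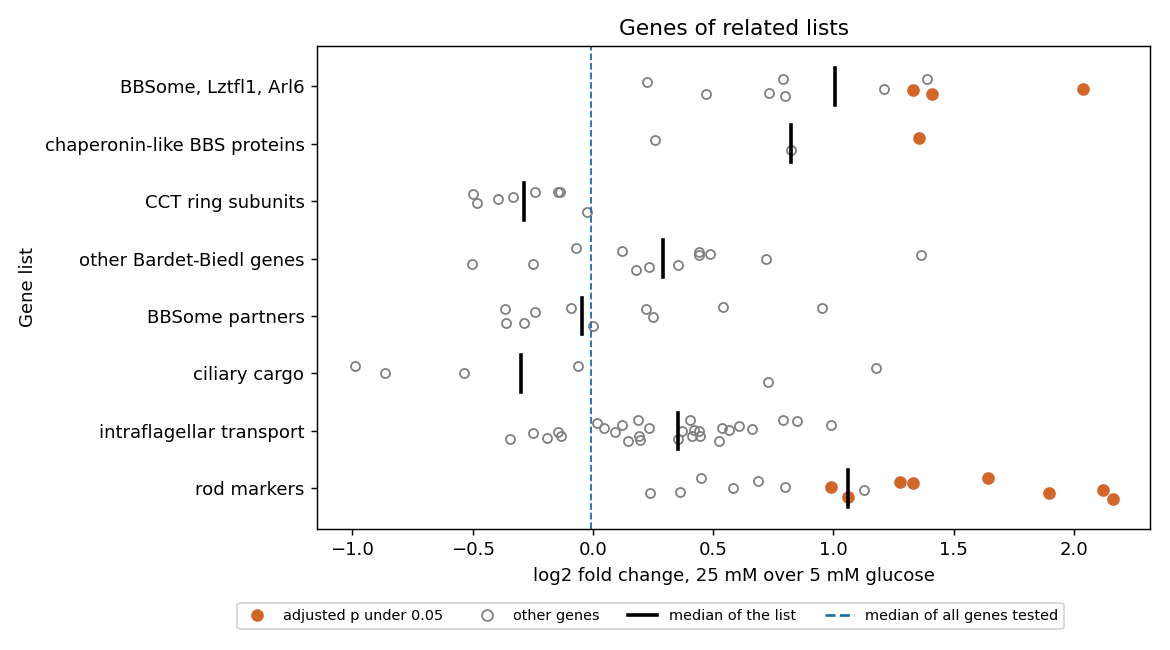
Fitted log2 fold change (25 mM over 5 mM glucose) of each gene in the BBSome group, in lists of related ciliary and chaperonin genes, and in the rod markers. Filled points passed an adjusted p of 0.05 in edgeR's test, black lines mark the median of a list, and the dashed line the median of all genes tested (-0.01). The BBSome group (median 1.01) and the rod markers (median 1.06) lie to the right, the CCT ring subunits (median -0.29) to the left.

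Across the 12 libraries the 10 genes tracked each other. Pearson's r of log2 CPM between pairs had a median of 0.876 over 45 pairs, from 0.312 for Bbs2 with Bbip1 to 0.988 for Bbs7 with Arl6. These values describe 12 libraries that share 6 retinal samples and 2 glucose levels. No r between pairs of other genes was set beside them, so the tracking is not shown to be particular to the 10. Genes outside the 10 also reached high values. The 5 other genes most like the mean of the 10 were Stard7 (r = 0.995), Glmn (0.994), Rp1 (0.992), Kdm4c (0.991) and Herc3 (0.989). Genes most like Arl6 alone included Kcnv2 (0.996), Cplx4 (0.995), Smug1 (0.995) and Tmem136 (0.994). Rp1 encodes a protein of the photoreceptor axoneme and Kcnv2 a photoreceptor potassium channel subunit. The mean level of Rp1 went from 250.3 CPM in the low to 2708 CPM in the high glucose group.

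The promoters of the 10 genes were searched for letters they might share, from 250 bases before to 50 bases after each start in RefSeq (GRCm38.p6), where all 10 were found. The X-box, bound by RFX factors that control many cilium genes, was searched on both strands as GTTNCCNNGGNAAC and with 1 or 3 middle bases in place of 2. The form with 2 was found in Bbs7 alone of the 10, and in 0.451% of all 32851 promoters. The form with 3 was found in Lztfl1 alone, and in 0.0609% of all. The form with 1 was found in none of the 10 and in 0.271% of all. The stretches below show these matches in capitals with 20 bases on each side, both on the minus strand and before the start.
Bbs7 (chr3:36613477-36613530): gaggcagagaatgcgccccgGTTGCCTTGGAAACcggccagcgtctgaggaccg
Lztfl1 (chr9:123717755-123717809): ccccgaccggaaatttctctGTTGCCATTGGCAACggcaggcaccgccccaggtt

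The Bbs7 match starts 121 bases and the Lztfl1 match 164 bases before the start, and Lztfl1 has another match after its start. The shorter motif GTTGCC, one arm of the X-box, which both of these matches contain, was found in Bbs1, Bbs5, Bbs7 and Lztfl1 and in 12.5% of all promoters. TAATCC, the core of the motif of the photoreceptor factor CRX, was found in Bbs1 and in 7.06% of all. The GC box GGGCGG was found in 6 of the 10 and in 35.7% of all, and the E-box CACGTG in Bbs7 and Lztfl1 and in 7.15% of all. Neither promoter entry of Arl6, the gene with the largest difference, held any of the X-box letters or TAATCC, and both had GC boxes. Of the 2 genes with an X-box match, Bbs7 had a log2 fold change of 1.41 and Lztfl1 of 0.47.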

How the data were processed

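Total RNA of explants was made into stranded low-input total RNA libraries and sequenced as read pairs. The authors deposited estimated counts (expected counts, of which 100.0% of the nonzero gene values and 86.7% of the nonzero transcript values were not exactly whole) per gene and per transcript, with technical libraries apart. The submitters' processing notes name GRCm38, and the aligner, counting tool, annotation and use of strand are not given in the sources used here. Identifiers were named from GENCODE M21 (GRCm38), which matched 90.8% of gene and 92.0% of transcript rows. The 2 technical libraries of each replicate were summed and rounded. Genes were kept by filterByExpr, scaled by TMM and tested with edgeR 4.0.16 (version 3 quasi-likelihood method, Benjamini-Hochberg over all 21061 genes). SE is the log2 fold change divided by the square root of F, and the biological coefficient of variation was 0.297. TPM used annotated transcript lengths and added all annotated forms of a gene. Transcript shares were compared with exact permutation tests. The fit was tested on simulated data. The 10 genes, the lists and the tests were chosen with earlier results of these data known. Named genes were all 10, in each list every gene with an adjusted p below 0.05 (up to 8, by size of change) or otherwise the 3 largest changes, and the 5 most correlated genes, of which 1 is not reported here. From the larger lists examples are given. Alternatives were DESeq2 1.42.0, limma 3.58.1, other scalings, filters and batches, a GC content and length correction (values for 96.4% of genes), a replicate block and leaving out replicates or libraries. Depth was 37944826 to 60098862 counts per summed replicate.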

Additional observations from a re-analysis of the deposited data

Results flagged for a closer look

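The check covered 26 groups of 6 libraries (the 10 genes, the Ttc8 and Arl6 form shares and the total counts, at each glucose level). In 3 of them a library was far from the other 5 relative to the group's range. If groups and libraries were independent, chance would flag about 1 in 20 such groups, or 1.3 of 26. They are not independent, since the genes correlate and libraries share replicates, so 3 against 1.3 is not a test. The batch 2 library of 5 mM replicate 1 had 174.8 CPM of Arl6, where the other 5 libraries at 5 mM had 68.0 to 97.8. The same library had 96.9 CPM of Bbs7, against 45.5 to 62.3 in the other 5. Its partner in batch 1 held 36692484 counts in all, where the other 5 libraries at 5 mM held 17998905 to 25003397.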

How the results depend on the processing

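Of 240 fold changes of the 10 genes under 24 alternatives, 238 kept their direction, 22 of them lost and 45 gained an adjusted p below 0.05, and Bbip1 turned to -0.03 with the GC content and length correction and to -0.03 with that correction and a replicate block. The median over the 10 genes stayed between 0.72 and 1.31. The cause of the changes was not tested.

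The 3 genes past an adjusted p of 0.05 became 6 with library totals, 8 with DESeq2, 6 without a filter on low counts, 8 in batch 1, 0 in batch 2, 8 with the GC content and length correction, 8 with that correction and the block, 5 with transcript counts summed per gene, 8 with 12 separate libraries and a batch term, 6 for 5 mM replicate 1 without its batch 2 library, 0 for 25 mM replicate 2 without its batch 1 library, and 0 when 25 mM replicate 1 also lacked its batch 2 library. All genes past it, 417 in the main analysis, came to 3489, 1979, 3279, 0, 2602 and 2889 with DESeq2, without a filter, in batch 1, in batch 2, with the correction, and with the correction and the block. They came to 2918 with 12 libraries and to 1731 without the batch 2 library of 5 mM replicate 1. Without the batch 1 library of 25 mM replicate 2 they came to 0. Without the batch 2 library of 25 mM replicate 1 they came to 194, and without both of the last to 0. The fit of 12 libraries treats the 2 technical libraries of a replicate as independent samples, which they are not. Its counts at either threshold can therefore be too high.

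At the stricter threshold, 0 of the 10 and 0 of all genes became 5 and 1387 with DESeq2, 3 and 275 without a filter, 1 and 367 in batch 1, 1 and 99 with the correction, 4 and 373 with the correction and the block, 1 and 109 with 12 libraries, and 1 and 56 without the batch 2 library of 5 mM replicate 1. Leaving out 1 replicate gave 0 to 8 of the 10 and 0 to 5845 genes at 0.05, and 0 to 3 of the 10 and 0 to 108 genes at the stricter threshold. The analyses of 12 libraries, without single libraries, relative to rod genes, of the Ttc8 and Arl6 forms alone and of retained introns in each gene were chosen after seeing the data.

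In batch 2 alone the share differences of Ttc8-203, Bbip1-201, Bbip1-209 and Arl6-202 turned to -1.2, 2.2, -0.1 and 0.0 percentage points. The biological replicates share only a number: deviations of same-numbered replicates from their group means correlated at -0.014, -0.449 and 0.285, and not every replicate correlated best with its own number. With that number as a replicate block, 5 of the 10 and 990 of all genes passed 0.05.

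With 3 replicates per group, the smallest exact permutation p for a transcript share is 0.1.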
